A study of Mus musculus with 12 samples.

Results

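Cerebral cortex of male (XY) mouse pups exposed to bisphenol A (BPA) through their mothers was compared with cortex of male pups exposed to the vehicle. The comparison uses 6 of the 12 one-colour Agilent arrays of the study, taken by treatment and sex in the sample titles: 3 BPA males and 3 vehicle males. The other 6 arrays hold female littermates, 1 from each dam. BPA was given to dams orally, daily from embryonic day 0, at 500 µg/kg in 0.01% ethanol, and vehicle dams had 0.01% ethanol only. Exposure went on through lactation, and the cortex was taken at 3 weeks of age. Each treatment had 3 dams, each the mother of 1 of the males, so that the replicates are animals of separate litters. No strain is named in the labels, and the tissue is whole dissected cortex, in which fewer cells of a type and less RNA per cell cannot be told apart.

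BPA is a building block of polycarbonate plastic and epoxy resin that binds estrogen receptors weakly and estrogen-related receptor gamma tightly. It has also been described as an antagonist at thyroid hormone receptors. The cortex at weaning is still myelinating its axons and refining its synapses, and both processes respond to thyroid and steroid hormones. Estrogen receptors, DNA methylation enzymes and the stress peptide system are therefore among the genes usually examined after early BPA exposure.

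Signals are given as log2 of the processed spot signal minus the 75th percentile of the same array, called the scaled log2 signal here, and a difference is always BPA minus vehicle. A value of 0 is as bright as that percentile, and levels of different genes are not compared because each probe has its own brightness. Tests are limma's moderated tests over all 12 arrays with 1 mean per group, two-sided, with Benjamini-Hochberg adjustment over all genes, and the standard error (SE) printed with a difference is limma's. All 3 vehicle males lay on 1 slide and all 3 BPA males on another, with the females placed in the same way, so slide and exposure cannot be told apart in any difference below. The arrays of 5 males had between 64.7% and 68.1% of their spots well above background, but BPA male 3 had 90.5%. On that array, dim genes read higher than in BPA males 1 and 2, by a median of 1.20 in the dimmest of 5 equal groups of genes and 0.38 in the next, while the brightest group read −0.13. BPA males 1 and 2 differed from each other by no more than 0.04 in any group. In the dimmest group the excess rose with the share of G and C in the probe, from 0.78 in probes of lowest G and C share to 1.58 in those of highest. Results are therefore given with all arrays and, where it matters, without BPA male 3.

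**Figure D1:**
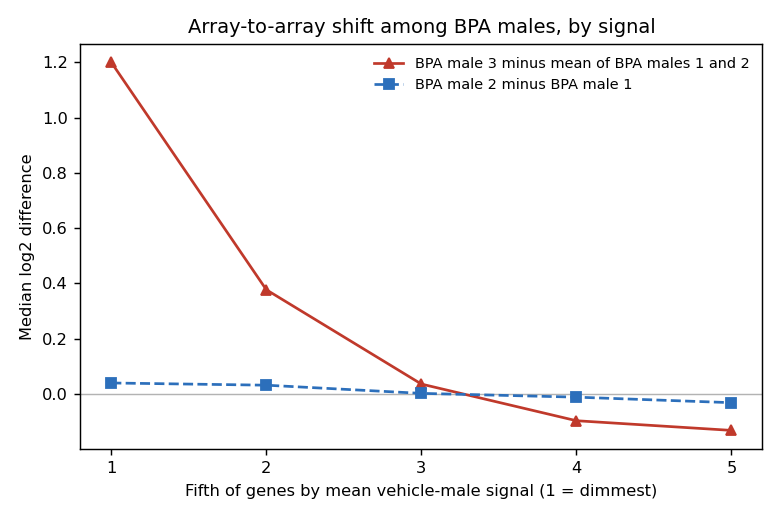
Median log2 difference between BPA male arrays (vertical axis) in 5 equal groups of genes ordered by mean vehicle-male signal (horizontal axis, 1 is the dimmest). BPA male 3 read 1.20 above the mean of BPA males 1 and 2 in the dimmest group and −0.13 in the brightest, whereas BPA males 1 and 2 stayed within 0.04 of each other.

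The sex of the samples was checked on the arrays. Xist, the RNA that coats the inactive X chromosome of females, was not well above background on any of the 6 male arrays. The Y-linked genes Ddx3y, Eif2s3y, Kdm5d and Uty, which are 4 of 8 listed, were well above background on all 6 male arrays. Their differences were 0.13 for Ddx3y, 0.05 for Eif2s3y, 0.13 for Kdm5d and −0.02 for Uty, each with an unadjusted p of 0.234 or higher, and another probe of Uty was at 0.47 (SE 0.23). Genes of cortical layers such as Lamp5, Tshz2 and Bcl11b were well above background on all 6 as well.

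The comparison between BPA and vehicle males gave no gene that passed. Of 25377 genes tested, limma called 0 at an adjusted p under 0.05 (0%), the smallest adjusted p being 0.459, and without BPA male 3 it also called 0, the smallest being 0.403. Counting instead those with an unadjusted p under 0.05 gave 2180 (8.59%), of which 1610 were higher in BPA males (6.34%) and 570 lower (2.25%). Without BPA male 3 there were 1123 higher (4.43%) and 701 lower (2.76%). Among the 16219 genes with a mean signal above −2, the split was even, 562 higher (3.47%) and 542 lower (3.34%). The excess of higher genes also depended on the scaling: the split was 912 higher and 1059 lower after quantile normalisation, 973 and 750 with normexp background correction and 719 and 781 in the authors' deposited values, whose column for BPA male 3 correlated with that array's own scanner values at only 0.141 (at least 0.973 for the other males). limma with a trended, robust variance gave 1423 and 754. Leaving out vehicle male 2 gave 1502. Leaving out BPA male 1 gave 3780 genes at an unadjusted p under 0.05 and 1 call, LOC634780, and leaving out BPA male 2 gave 2733 and 1 call, a transcript region on chromosome 2. The median SE of a difference was 0.116, set by 3 arrays per group, and the median difference over all genes was 0.04.

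Genes were picked for naming by smallest p without BPA male 3, 12 in each direction, among genes with a mean above −2 whose BPA and vehicle males did not overlap on all 6 arrays. Over all genes, groups did not overlap for 1943 genes higher in BPA males (7.66%) and 898 lower (3.54%). These shares include the dim genes that read higher on BPA male 3, and were not counted for brighter genes alone. At an unadjusted p under 0.05, 3.34% of the genes with a mean above −2 were lower, against 2.25% of all genes. The shares over all genes are therefore an uneven comparison for the lists of bright genes below. None of the 24 picked genes passed: their adjusted p with all arrays ran from 0.459 to 0.505. The 12 on the higher side were Sfmbt1, Pcnp, Crh, Stx3, Idh3b, Zbtb24, Osbpl9, Abcg1, Sbds, Aspg, Dph7 and Eif4enif1. For 11 of these 12, and for 7 of the 12 lower genes named below, BPA male 3 was the BPA array nearest to the vehicle mean. The ranking did not use that array, which can favour this. BPA male 3 also read −0.10 and −0.13 relative to BPA males 1 and 2 in the 2 brightest groups of genes. The part of either was not tested.

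Crh encodes corticotropin-releasing hormone, which interneurons of the cortex make as well as the hypothalamus. Its probe (mm9, chr3:19593482-19593541) read 1.16, 1.19 and 1.31 in vehicle males and 1.68, 1.96 and 1.53 in BPA males, a difference of 0.50 (SE 0.11; adjusted p 0.459). Every BPA male lay above every vehicle male, which the rule of naming required. Sfmbt1, a Polycomb-associated protein, read 1.38, 1.22 and 1.35 against 1.75, 1.86 and 1.51, a difference of 0.39 (SE 0.09). Its other probe was at 0.01. Abcg1, a cholesterol exporter, read 2.24, 2.27 and 2.42 in vehicle males and 2.68, 2.70 and 2.56 in BPA males, a difference of 0.33 (SE 0.07). Osbpl9, an oxysterol-binding protein, read −1.35, −1.26 and −1.38 against −0.99, −0.87 and −1.04 (difference 0.36, SE 0.07). Stx3, a syntaxin of membrane fusion, had a difference of 0.33 (SE 0.07), with its other probes at 0.57 and 0.39. The mitochondrial isocitrate dehydrogenase subunit Idh3b differed by 0.26 (SE 0.07) and the ribosome maturation factor Sbds by 0.26 (SE 0.07). In both of them BPA males 1 and 2 were close together and BPA male 3 lay between them and the vehicle arrays: 3.62, 3.60 and 3.40 for Idh3b over vehicle values of 3.25, 3.25 and 3.35, and 2.96, 3.02 and 2.78 for Sbds over 2.67, 2.64 and 2.69. Pcnp, a nuclear protein, had a difference of 0.29, the asparaginase Aspg 0.46, the diphthamide enzyme Dph7 0.31 and the translation repressor Eif4enif1 0.31.

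The 12 on the lower side were Apcdd1, Gnb4, Laptm5, Senp7, Tbc1d16, Plcb1, Tet1, Gbp3, Sfswap, Gatm, Bcl7b and Chn2. Gnb4 encodes a beta subunit of heterotrimeric G proteins. It read 1.03, 0.95 and 0.94 in vehicle males and 0.63, 0.53 and 0.58 in BPA males, a difference of −0.40 (SE 0.06) and the smallest p over all genes (4.03e-05; adjusted p 0.459). The 2 groups were tight, and they stood apart, which the rule of naming required. Plcb1, the phospholipase C that metabotropic glutamate receptors drive, read 3.89, 3.68 and 3.74 against 3.41, 3.39 and 3.38 (difference −0.38, SE 0.07), and its other probes were at −0.20 and −0.09. Tbc1d16, a regulator of Rab GTPases, read 1.59, 1.61 and 1.53 against 1.04, 0.98 and 1.12 (difference −0.53, SE 0.10). Apcdd1, an inhibitor of Wnt signalling, read 0.09, 0.01 and 0.04 against −0.52, −0.40 and −0.17 (difference −0.41, SE 0.09). Here too BPA male 3 was nearest to the vehicle arrays. Gatm, which makes the precursor of creatine, had a difference of −0.30 (SE 0.08), and Chn2, a GTPase-activating protein for Rac, had one of −0.25 (SE 0.07; −0.03 on its other probe). The splicing regulator Sfswap was at −0.27 and the chromatin remodelling subunit Bcl7b at −0.29. Senp7, a SUMO protease, was at −0.29, but its other probe was at 0.09. Of the 24 named genes, 7 had other probes, and for 6 of these all other probes went the same way. Several of the 24, such as Gnb4, Tet1 and Laptm5, also belong to gene lists below. Those lists were chosen with earlier results of these data known, so their counts are descriptions and not tests.

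**Figure D2:**
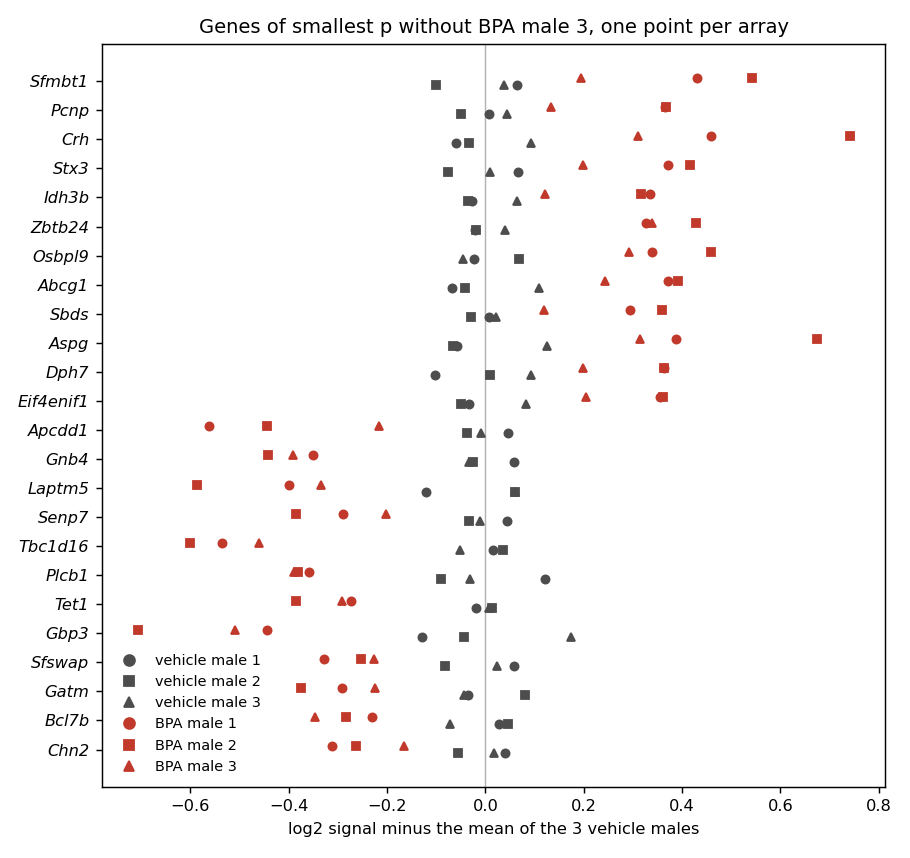
Scaled log2 signal of the 24 named genes minus the mean of the 3 vehicle males (horizontal axis), 1 point per array, with vehicle males in grey and BPA males in red. No BPA point crosses into the vehicle range in any of the 24 genes, which was a condition of their choice. The triangles of BPA male 3 are the BPA points nearest to 0 in 11 of the 12 higher genes and 7 of the 12 lower ones.

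Receptors through which BPA could act were examined next. Of 15 nuclear receptors and related genes listed, 14 were measured, 8 higher and 6 lower, with a median of 0.01. The split rested on single arrays: it was 3 higher and 11 lower without vehicle male 2 (median −0.07) and 11 higher and 3 lower without vehicle male 3 (median 0.05). Esr1, estrogen receptor alpha, read −3.84, −4.44 and −4.67 in vehicle males and −4.18, −3.88 and −3.95 in BPA males, a difference of 0.31 (SE 0.20) with overlap, which turned to −0.74 after quantile normalisation. Esr2, estrogen receptor beta, read 3.09, 3.20 and 3.37 in vehicle males and from 2.99 to 3.19 in BPA males, a difference of −0.13 (SE 0.09), also with overlap. Esrrg, the estrogen-related receptor gamma, differed by 0.09 (SE 0.06). Its BPA males reached down to the top vehicle male, at −0.21 on both sides when rounded. The membrane estrogen receptor Gper1 was at 0.02 (SE 0.11) and the estrogen-related receptor alpha, Esrra, at −0.02 (SE 0.06). The thyroid hormone receptors Thra and Thrb were at −0.02 (SE 0.07) and 0.00 (SE 0.13), and the progesterone receptor Pgr at 0.04 (SE 0.14), with its other probes at 0.25 and 0.41.

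Of 18 measured genes known to respond to estrogen, 9 were higher and 9 lower, with a median of −0.01 (0.02 without BPA male 3). Oxt encodes oxytocin, a peptide made by hypothalamic neurons whose promoter responds to estrogen receptors. Its probe (mm9, chr2:130402665-130402724) read −3.23, −2.46 and −2.28 in vehicle males and −0.63, 0.86 and −0.15 in BPA males. All BPA males stood above all vehicle males, with a difference of 2.68 (SE 0.87; p 0.012, adjusted p 0.522), and without BPA male 3 it was 2.77. Nrip1, a corepressor of nuclear receptors that estrogen induces, read 1.01, 0.90 and 1.09 against 1.15, 1.29 and 1.16, a difference of 0.20 (SE 0.07). Ccnd1, the cyclin that estrogen induces in many tissues, was at −0.40 (SE 0.15), with vehicle and BPA males overlapping. Of 19 genes known to respond to thyroid hormone, 9 were higher and 10 lower, with a median of 0.00 (−0.09 without vehicle male 2), and the thyroid hormone-activating deiodinase Dio2 was at 0.24 (SE 0.11).

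After the Oxt values were seen, 12 further hypothalamic neuropeptides were added to it as a list, so the following is a description with no weight as a test. Of the 13, 12 were higher and 1 lower, 4 were higher without overlap (30.8%, against 7.66% of all genes) and the median was 0.31. Avp, encoding vasopressin, read −4.24, −4.22 and −4.06 in vehicle males and −3.35, −2.42 and −2.40 in BPA males, a difference of 1.45 (SE 0.61). Hcrt, the orexin precursor, was at 0.59 (SE 0.21) and Gal, encoding galanin, at 0.29 (SE 0.12). Pomc was at −0.11 and Cartpt at 0.00. Markers of basal forebrain cholinergic neurons were listed in the same way, and 7 of 8 were higher, with a median of 0.61. Lhx8, a transcription factor of those neurons, read −3.65, −1.12 and −2.70 in vehicle males and −1.12, −0.96 and −1.09 in BPA males, so that vehicle male 2 read as high as BPA male 1. The choline transporter Slc5a7 read −2.25, −1.51 and −2.17 against −1.46, −1.12 and −1.27. The cholinergic median was 0.37 with normexp background correction and 0.93 without vehicle male 2, and the neuropeptide median was 0.21 without vehicle male 3. Both lists hold genes of regions next to the dissected cortex, and the part of the dissection in these values was not tested.

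Nr3c1, the glucocorticoid receptor, was at −0.03 (SE 0.11) on the probe used and at 0.21 (SE 0.10) on its other probe, and aromatase, Cyp19a1, which makes estrogen, was at 0.47 (SE 0.49) and dim, with BPA male 3 highest. In the corticosteroid axis, 13 of 20 listed genes were higher and 7 lower, with a median of 0.10. Besides Crh, its receptor Crhr1 read 2.31, 2.17 and 2.38 in vehicle males and 2.26, 1.86 and 2.05 in BPA males, a difference of −0.23 (SE 0.10) with overlap, and its other probe was at −0.07. The glucocorticoid-induced phosphatase Dusp1 was at −0.64 (SE 0.39) and the cell cycle inhibitor Cdkn1a at 0.33 (SE 0.21). The median was 0.02 without BPA male 2 and 0.17 without BPA male 1.

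The machinery of DNA methylation was listed by role as genes that take part in writing the mark, genes linked to its removal and proteins that read it. Among the writers, 5 of 8 were higher and 3 lower, with a median of 0.09 that was −0.11 without BPA male 3 and −0.08 after quantile normalisation. Zbtb24, a zinc finger protein whose loss lowers methylation in an immunodeficiency syndrome, read −0.87, −0.87 and −0.81 in vehicle males and −0.52, −0.42 and −0.51 in BPA males, a difference of 0.36 (SE 0.06; adjusted p 0.459). Dnmt1, the maintenance methyltransferase, read −0.66, −0.71 and −0.82 against −0.44, −0.49 and −0.49 (difference 0.26, SE 0.07). Dnmt3a, the main de novo methyltransferase of neurons, lay on the other side, at 3.88, 3.92 and 3.93 against 3.73, 3.65 and 3.57 (difference −0.26, SE 0.06). These 3 genes did not overlap between groups, whereas Dnmt3b (0.06), Dnmt3l (0.33, and −0.57 after quantile normalisation), Uhrf1 (−0.33), Uhrf2 (−0.10) and Hells (0.11) did. Without overlap were thus 2 of 8 on the higher side (25%, against 7.66% of all genes) and 1 on the lower (12.5%, against 3.54%). For Zbtb24 the rule of naming required it.

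Among the 10 removal genes, 5 were higher and 5 lower, with a median of 0.01 (−0.09 without BPA male 3). Tet1, which oxidises methylcytosine, read 0.84, 0.87 and 0.86 in vehicle males and 0.58, 0.47 and 0.56 in BPA males, a difference of −0.32 (SE 0.06; adjusted p 0.459), and its other probes were at −0.11 and −0.37. Its relatives Tet2 and Tet3 were at 0.07 (SE 0.09) and −0.07 (SE 0.13), but the other probe of Tet2 was at 0.24 (SE 0.08) and those of Tet3 at 0.24 (SE 0.25) and 0.17 (SE 0.20). Gadd45g and Gadd45b, stress and activity genes linked to demethylation, were at −0.52 (SE 0.27) and −0.41 (SE 0.34), both without overlap between groups. With Tet1, whose naming required it, 3 of the 10 did not overlap on the lower side (30%, against 3.54% of all genes). None did so on the higher side. Of the 9 readers, 7 were higher, but 3 without BPA male 2. Mbd1 read 0.90, 1.03 and 1.02 against 1.26, 1.29 and 1.27 (difference 0.29, SE 0.07). Histone enzymes gave smaller values: the medians were −0.03 over 18 deacetylases and sirtuins and 0.00 over 22 histone methylation and Polycomb genes. Imprinted genes had a median of −0.02 over 24 with 10 higher, which turned to 0.05 with 16 higher without BPA male 3. Among them were Mkrn3 at −0.18 (SE 0.08) and Mest at −0.22 (SE 0.09), both with overlap on the probe used. The other probe of Mkrn3 was at −0.32 (SE 0.11), and those of Mest at −0.16 (SE 0.11) and −0.37 (SE 0.09).

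Enzymes of cholesterol synthesis were lower in BPA males in 19 of 20 cases, with a median of −0.18. The median was 0.04 over all genes tested and −0.01 over genes with a mean above −2, as all 20 had. In 3 of the 20 the unadjusted p was under 0.05 on the lower side, as it was for 2.25% of all genes, and in 4 the groups did not overlap on the lower side (20%, against 3.54% of all genes). Cyp51, lanosterol demethylase, read −0.53, −0.45 and −0.54 in vehicle males and −0.55, −0.97 and −0.93 in BPA males (difference −0.31, SE 0.10). Sqle, squalene epoxidase, read 3.98, 4.03 and 4.06 against 3.93, 3.40 and 3.87 (difference −0.29, SE 0.13). BPA male 2 had the lowest value in both, and its median over the 20 enzymes was −0.40 relative to the vehicle males, against 0.00 for BPA male 1 and −0.14 for BPA male 3. Without BPA male 2 the median difference was −0.09. Without BPA male 3 all 20 were lower, with a median of −0.22. The unadjusted p was then under 0.05 on the lower side in 6 of them (2.76% of all genes). That fit keeps BPA male 2, the lowest array, and BPA male 1 only. Fdps, which makes farnesyl diphosphate, was at −0.24 (SE 0.11). The only enzyme not lower with all arrays was Nsdhl, at 0.00 (SE 0.12).

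Many of these enzymes are targets of the transcription factor SREBP2, which binds sterol regulatory elements. Hmgcs1, the enzyme that commits acetyl units to the pathway, read 5.92, 5.89 and 5.85 in vehicle males and 5.82, 5.23 and 5.87 in BPA males. Its difference of −0.25 (SE 0.15) came with overlap and rested on BPA male 2. The 250 bases before its start (RefSeq, GRCm38.p6, plus strand, chr13:119690101-119690350) are shown because they hold the only match among the enzymes, in capitals:
Hmgcs1: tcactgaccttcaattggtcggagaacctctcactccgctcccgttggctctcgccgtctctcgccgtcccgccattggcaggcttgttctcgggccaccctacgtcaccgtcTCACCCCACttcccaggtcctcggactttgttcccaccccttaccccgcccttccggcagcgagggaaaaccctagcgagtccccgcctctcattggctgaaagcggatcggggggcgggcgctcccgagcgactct
The motif searched was TCACNCCAC on both strands, in the 250 bases before and 50 after each start. It was found for 1 of the 15 enzymes with a promoter in the table, 137 to 129 bases before the start of Hmgcs1, and for 1.44% of all genes in that table. Genes of cholesterol regulation, uptake and export were higher in 10 of 22 cases and lower in 12, with a median of −0.02. In 4 of the 22 (18.2%, against 7.66% of all genes) the groups did not overlap on the higher side, among them Abcg1, Osbpl9 and the oxysterol receptor Nr1h3 (0.13, SE 0.06). Abcg1 and Osbpl9 had been picked above for groups that did not overlap, so this count has no weight as a test.

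Myelin genes were lower in 16 of 18 cases, with a median of −0.19, and all 18 had a mean above −2. In 10 of the 18 (55.6%, against 3.54% of all genes) every BPA male lay below every vehicle male. Only 2 of the 18 had an unadjusted p under 0.05 on the lower side (2.25% of all genes), and 1 without BPA male 3 (2.76%). In females 12 of the 18 were higher, with a median of 0.06. The list's median ranged from −0.18 to 0.28 among vehicle females, relative to their mean. Ugt8a, which makes galactosylceramide, the main myelin lipid, read 1.93, 1.80 and 1.88 in vehicle males and 1.58, 1.51 and 1.40 in BPA males, a difference of −0.37 (SE 0.15; adjusted p 0.557). Mag, a myelin-associated glycoprotein of the inner wrap, read 4.53, 4.58 and 4.25 against 4.17, 4.11 and 4.15 (difference −0.31, SE 0.13). Tspan2, a tetraspanin of oligodendrocytes, read 4.24, 4.45 and 4.26 against 4.0, 4.07 and 4.21 (difference −0.23, SE 0.11). In each of these 3 genes every BPA male lay below every vehicle male. Cldn11, the claudin of myelin, was at −0.19 (SE 0.09). Mbp, myelin basic protein, was at −0.26 (SE 0.13) on the probe used and at 0.05 and 0.08 on its other probes. Ermn, a late oligodendrocyte gene, was at 0.14 (SE 0.17), with its other probe at −0.15. The list's median was −0.16 for BPA male 1, −0.19 for BPA male 2 and −0.13 for BPA male 3, below the 3 vehicle males at −0.02, 0.08 and −0.05. Regulators and precursors of the lineage were lower in 12 of 17, with a median of −0.13 (−0.07 without vehicle male 2). The receptor Gpr17 of committed precursors was at −0.26 (SE 0.10) and the precursor marker Pdgfra at 0.12 (SE 0.07).

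**Figure D3:**
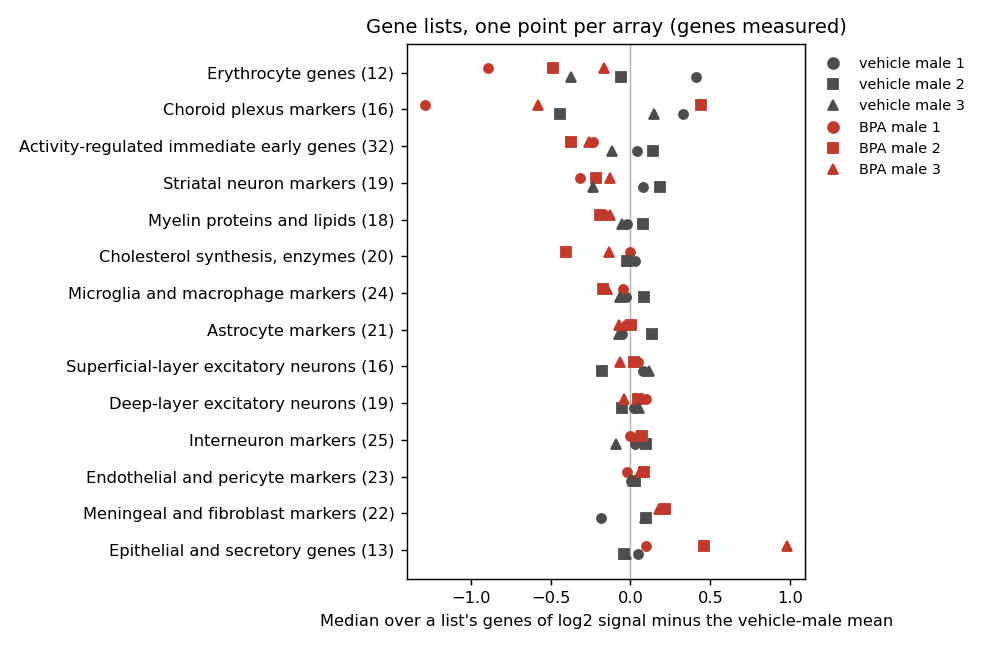
Median over the genes of a list of each array's scaled log2 signal minus the vehicle-male mean (horizontal axis), 1 point per male array, vehicle in grey and BPA in red, with the number of genes measured in brackets. For myelin genes the 3 BPA males, at −0.19 to −0.13, lie below the 3 vehicle males, while for choroid plexus markers BPA male 2 lies apart from BPA males 1 and 3.

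Genes of red blood cells were lower in 11 of 12 cases, with a median of −0.60. Hba-a2, an alpha globin, read 8.69, 8.36 and 7.99 in vehicle males and 7.33, 7.90 and 7.47 in BPA males, a difference of −0.78 (SE 0.23; adjusted p 0.505). Hbb-bt, a beta globin, read 6.03, 5.42 and 5.15 against 4.32, 4.75 and 4.76 (difference −0.92, SE 0.28), and the erythroid heme enzyme Alas2 read 0.80, 0.32 and −0.17 against −0.99, −0.43 and −0.63 (difference −1.0, SE 0.28). In all 3 genes vehicle male 1 was the highest array and the groups did not overlap. Over the list, 6 of 12 did not overlap on the lower side (50%, against 3.54% of all genes). Hba-a1 and Hbb-b2 gave −0.86 and −0.88, and near-identical globin copies may share signal on these probes. The median was −0.25 without vehicle male 1 and −0.33 with normexp background correction. The amount of blood left in each cortex was not recorded, and its part in other differences was not tested.

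Choroid plexus markers were lower in 15 of 16, with a median of −0.47, but no member stood apart between groups. Ttr, encoding transthyretin, the main product of the choroid plexus, read 5.66, 3.93 and 5.25 in vehicle males and 0.93, 5.71 and 0.59 in BPA males. BPA males 1 and 3 were low and BPA male 2 was the highest of all 6, so the difference of −2.54 (SE 1.36) did not exceed the spread. Folr1 and Kcne2, a folate receptor and a potassium channel subunit of that tissue, followed the same arrays, with BPA male 2 near the vehicle males, but another probe of Folr1 was at 0.26 (SE 0.43). The list median was −0.12 without BPA male 1, −0.25 without vehicle male 1, −0.74 without vehicle male 2, −0.94 without BPA male 2, −0.80 after quantile normalisation and −0.27 with normexp.

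Of 22 markers of meninges and fibroblasts, 18 were higher, with a median of 0.24, and 8 of the 22 (36.4%, against 7.66% of all genes) did not overlap. Fn1, fibronectin, read 3.00, 3.24 and 3.38 in vehicle males and 3.53, 3.63 and 3.52 in BPA males, a difference of 0.35 (SE 0.11; adjusted p 0.513). Ptgds, the prostaglandin D synthase of the meninges, read 7.32, 7.66 and 7.74 against 8.02, 8.07 and 7.88 (difference 0.42, SE 0.15). Mgp, matrix Gla protein, read 2.75, 2.94 and 3.18 against 3.19, 3.84 and 3.36 (difference 0.51, SE 0.17), and the proteoglycan Bgn was at 0.43 (SE 0.13). Vehicle male 1 was the lowest array in each of these 4, and without it the list median was 0.11. Endothelial and pericyte markers had a median of 0.04 (−0.01 with normexp), with Pecam1 at 0.43 (SE 0.13; 0.29 without BPA male 3) and Cldn5 at 0.09 (SE 0.08).

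Markers of superficial layers had a median of −0.01 over 16 genes, deep-layer markers 0.03 over 19 and interneuron markers 0.04 over 25. Without vehicle male 2 these were −0.11, −0.04 and 0.16. Vip, a peptide of an interneuron class, read 1.47, 1.24 and 1.61 in vehicle males and 1.67, 2.22 and 1.65 in BPA males, a difference of 0.41 (SE 0.15; adjusted p 0.547). Tshz2, a deep-layer gene, was at 0.31 (SE 0.11), with no overlap and its other probe at 0.41. Striatal neuron markers were lower in 16 of 19, with a median of −0.21 (−0.11 without vehicle male 2, −0.31 without vehicle male 3). Adcy5, the striatal adenylyl cyclase, read 3.05, 3.04 and 2.94 in vehicle males and 2.81, 2.78 and 2.82 in BPA males, a difference of −0.21 (SE 0.10), with its other probes at −0.24 and −0.22. Rgs9, a GTPase-activating protein, read 3.42, 3.58 and 3.04 against 2.99, 3.06 and 3.03. Its other probes were at −0.29, −0.26 and 0.19. In Rgs9, as in Ppp1r1b and Adora2a, vehicle male 3 was at the level of the BPA males.

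Immediate early genes, which neurons switch on within minutes of activity, were lower in 27 of 32 cases, with a median of −0.22. In 13 of the 32 (40.6%, against 3.54% of all genes) every BPA male lay below every vehicle male. Only 1, Jun, had an unadjusted p under 0.05 on the lower side (2.25% of all genes), and 0 without BPA male 3 (2.76%). The median without that array was −0.30. In females 28 of the 32 were lower, with a median of −0.28. Among vehicle females the list's median ranged from −0.76 to 0.43, relative to their mean. Jun, a subunit of the transcription factor AP-1, read 3.84, 3.94 and 3.57 in vehicle males and 3.55, 3.40 and 3.34 in BPA males, a difference of −0.35 (SE 0.13; adjusted p 0.547). Btg2, an antiproliferative gene, read 0.16, 0.61 and −0.18 against −0.95, −0.24 and −1.02 (difference −0.93, SE 0.47). Dusp1, a phosphatase of MAP kinases, read 1.84, 1.72 and 1.77 against 1.03, 1.26 and 1.13. Its male arrays stood well apart, but its SE, which pools the spread of all 4 groups, was 0.39. Nr4a2, an orphan receptor, was at −0.34 (SE 0.16). Nptx2, a secreted protein of synapses, lay on the higher side, at 0.32 (SE 0.13). The time from handling to dissection is not in the labels, and its part in these values was not tested.

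Several of these genes respond to CREB through the cyclic AMP response element. The 250 bases before the start of Btg2 (RefSeq, GRCm38.p6, minus strand, chr1:134079156-134079405) and of Dusp1 (minus strand, chr17:26508473-26508722) are shown because they alone in the list hold the palindrome, in capitals:
Btg2: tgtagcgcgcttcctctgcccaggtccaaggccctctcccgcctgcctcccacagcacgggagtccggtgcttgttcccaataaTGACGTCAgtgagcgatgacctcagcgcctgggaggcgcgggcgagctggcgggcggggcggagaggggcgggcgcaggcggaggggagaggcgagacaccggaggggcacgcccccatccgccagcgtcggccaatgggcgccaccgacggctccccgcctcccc
Dusp1: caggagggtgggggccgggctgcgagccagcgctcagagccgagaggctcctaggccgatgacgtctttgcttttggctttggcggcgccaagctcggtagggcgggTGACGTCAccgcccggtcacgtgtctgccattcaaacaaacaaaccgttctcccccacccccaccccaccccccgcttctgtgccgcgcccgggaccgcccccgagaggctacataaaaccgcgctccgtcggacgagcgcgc
The motif searched was TGACGTCA, which reads the same on both strands. It was found for 2 of the 25 immediate early genes with a promoter in the table (8%) and for 2.03% of all genes there. It lies 166 to 159 bases before the start of Btg2 and 143 to 136 bases before that of Dusp1. The CArG box bound by SRF was found for 2 of the 25, Dusp5 and Egr2, and for 1.81% of all genes. The full palindromic estrogen response element was found for 0 of 16 estrogen-responsive genes and for 0 of 9 named higher and 0 of 9 named lower genes, and for 0.074% of all genes.

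**Figure D4:**
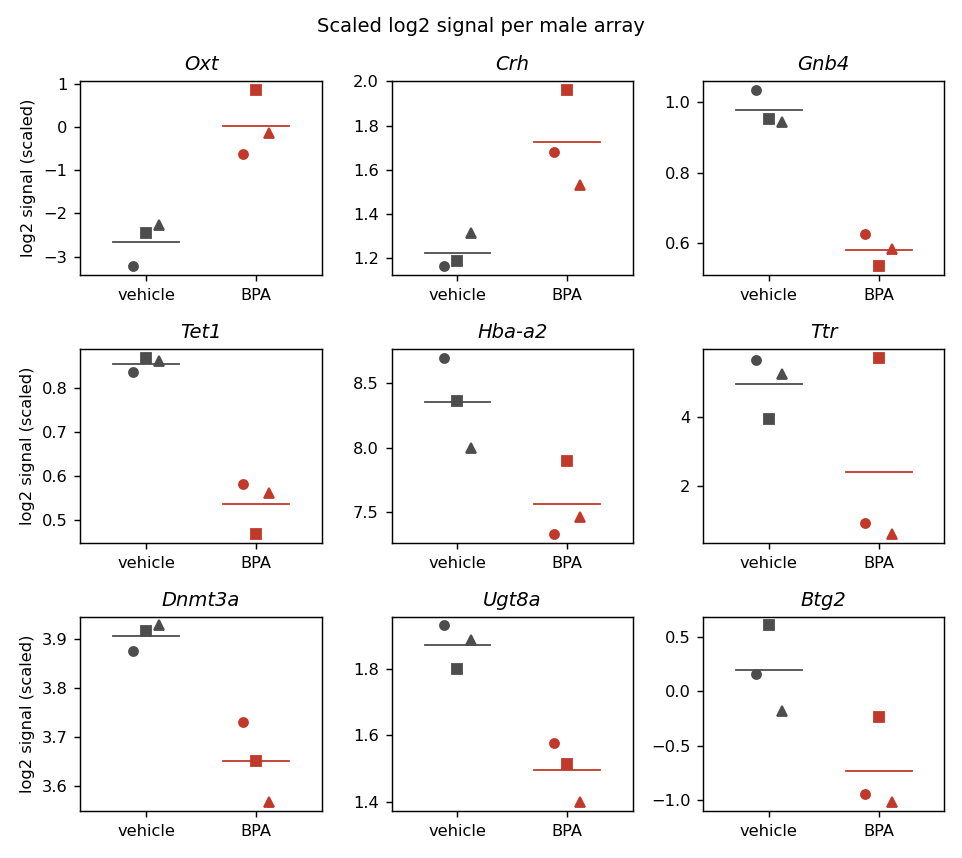
Scaled log2 signal (vertical axis) of 9 genes on each of the 3 vehicle males (grey) and 3 BPA males (red), with a line at each group mean and a separate axis for each gene. Ttr is split among the BPA males, at 0.93, 5.71 and 0.59, whereas the groups stand apart for the other 8 genes. For Crh, Gnb4 and Tet1 the rule of naming required this.

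Microglia and macrophage markers were lower in 19 of 24 cases, with a median of −0.13 (−0.07 without vehicle male 2), and in 6 of the 24 (25%, against 3.54% of all genes) the groups did not overlap on the lower side. Laptm5, a lysosomal protein of immune cells, read 0.91, 1.09 and 1.10 in vehicle males and 0.63, 0.45 and 0.70 in BPA males, a difference of −0.44 (SE 0.08), with its other probe at −0.38. Trem2, a lipid-sensing receptor of microglia, read 1.81, 1.92 and 1.80 against 1.67, 1.47 and 1.49 (difference −0.30, SE 0.08; adjusted p 0.499). Mrc1, which marks macrophages at the brain's borders, lay on the higher side at 0.25 (SE 0.11). Interferon and inflammation genes were lower in 16 of 24, with a median of −0.08 (−0.03 without vehicle male 2, −0.15 without vehicle male 1). Gbp3, a guanylate-binding protein that interferon induces, read −0.37, −0.28 and −0.07 against −0.68, −0.95 and −0.75 (difference −0.55, SE 0.12), and Bst2 was at −0.25 (SE 0.10). Il1b (0.71, SE 0.23) and Irf7 (0.75, SE 0.30) were higher but dim, with BPA male 3 the highest array of each, and without it they were at 0.52 and 0.32. After quantile normalisation Il1b was at −0.04.

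Astrocyte markers were higher in 9 of 21 cases and lower in 12, with a median of −0.08, which was −0.01 without BPA male 3 and 0.03 without vehicle male 2. Gfap, the intermediate filament of astrocytes, read 1.36, 1.27 and 1.38 in vehicle males and 1.49, 1.94 and 1.56 in BPA males, a difference of 0.33 (SE 0.12; adjusted p 0.547), and its other probes were at 0.58 and 0.22. Slc4a4, a bicarbonate cotransporter, read 2.20, 2.45 and 2.03 against 1.92, 1.73 and 1.89 (difference −0.38, SE 0.14), with its other probes at 0.05 and −0.42. Both genes stood apart between groups. Over the list, 2 of 21 did not overlap on the higher side (9.52%, against 7.66% of all genes) and 3 on the lower (14.3%, against 3.54%). Components of perineuronal nets, the matrix around interneurons, had a median of 0.00 over 19 genes (−0.10 after quantile normalisation). Within them Hapln1, the link protein of the net, read 0.83, 0.79 and 0.67 in vehicle males and 0.64, 0.08 and 0.33 in BPA males (difference −0.42, SE 0.13), and the protease Adamts4 was at −0.34 (SE 0.13).

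Signalling at the synapse was examined by receptor and transducer. Of 16 G protein beta and gamma subunits, 12 were lower, with a median of −0.10, which was −0.05 without BPA male 2 and −0.05 without vehicle male 2. After Gnb4, the gamma subunit Gng5 was at −0.26 (SE 0.10) and the striatum-rich Gng7 at −0.27 (SE 0.14), both with overlap, while Gnb1 and Gnb2, the common beta subunits, were at 0.04 (SE 0.07; −0.06 on its other probe) and −0.06 (SE 0.07). Metabotropic glutamate receptors and their Gq pathway had a median of −0.02 over 23 genes (0.04 without BPA male 3), with Plcb1, Grm3 (−0.32, SE 0.13) and Itpr2 (−0.13, SE 0.05) on the lower side without overlap. Grin2b, the NMDA receptor subunit of the young cortex, read 2.77, 2.81 and 2.50 in vehicle males and 2.46, 2.46 and 2.34 in BPA males, a difference of −0.27 (SE 0.09; adjusted p 0.539), but its other probe was at 0.04. The potassium channels Kcna3 and Kcna2 were at 0.31 (SE 0.10) and 0.20 (SE 0.09), both without overlap. Of 21 voltage-gated potassium channels, 3 did not overlap on the higher side (14.3%, against 7.66% of all genes). Scn8a, a sodium channel of the axon initial segment, was at 0.25 (SE 0.08) on the probe used, with its other probes at −0.02 and −0.19.

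Receptors and enzymes of monoamines and acetylcholine had a median of 0.07 over 34 with 21 higher, which was 0.00 with 17 higher without BPA male 3 and −0.12 with 9 higher after quantile normalisation. Steroid synthesis genes had a median of 0.01 over 13 with 6 lower, but −0.10 with 11 lower after quantile normalisation and −0.04 with 9 lower in the authors' deposited values. Neurotrophins and their receptors had a median of 0.02 over 19 (0.08 without vehicle male 1). Synaptic adhesion and scaffold genes had one of 0.03 over 23, which was between −0.03 and 0.06 when 1 male array was left out. Oxidative phosphorylation genes were lower in 21 of 26, with a median of −0.05, and cytosolic ribosomal proteins in 21 of 26, with a median of −0.06. Without BPA male 3 these medians were −0.01 and −0.02. Genes often used as references had a median of −0.04 over 16 (0.00 after quantile normalisation). Groups did not overlap for 2 of the 16 on the lower side (12.5%, against 3.54% of all genes) and 2 on the higher (12.5%, against 7.66%). Among these were Actb at −0.16 (SE 0.05) and Tbp at 0.19 (SE 0.07). In the circadian clock, Cry1 was at 0.44 (SE 0.14; −0.18 after quantile normalisation), Arntl at 0.28 (SE 0.13) and the clock output gene Dbp at −0.45 (SE 0.18). Dbp read 4.73, 4.63 and 4.95 in vehicle males and 4.47, 3.84 and 4.64 in BPA males, with BPA male 2 lowest. The hour of dissection is not in the labels, and its part in the clock genes was not tested.

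Epithelial and secretory genes, for which the cortex is not known, were dim. Of 13 measured, 9 were higher with all arrays, with a median of 0.55. The median was −0.01 without BPA male 3, −0.01 after quantile normalisation, 0.10 with normexp and 0.05 with array weights. Anxa8, an annexin, and Dapl1, an epithelial differentiation gene, did not share that dependence. Anxa8 read −2.97, −3.03 and −2.82 in vehicle males and −2.28, −1.91 and −2.22 in BPA males (difference 0.81, SE 0.13; adjusted p 0.459). Dapl1 read −2.88, −2.68 and −2.56 against −1.77, −1.70 and −1.72 (difference 0.97, SE 0.16). On each of them all 3 BPA males stood above all vehicle males, and without BPA male 3 the differences were 0.85 and 0.97. A further 108 genes were not well above background on any vehicle male and were on every BPA male, and BPA male 3 was the highest BPA array for all but 1 of them. For these only a bound can be given, against the higher of the gene's own signal and the lowest signal above background on each vehicle array. The largest bounds were at least 3.13-fold for the olfactory receptor Olfr1383, 2.99-fold for 4930520O04Rik, 2.71-fold for an unnamed transcript and 2.61-fold for the vomeronasal receptor Vmn1r56. Without BPA male 3 they were at least 1.40-fold, 1.49-fold, 1.33-fold and 1.95-fold. In the opposite direction there was 1 gene, LOC100046302, at least 1.19-fold lower.

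The sisters of these males allow a test of whether the male difference departs from the female one, and a shift between slides that is equal in both sexes cancels in it. For this interaction limma called 0 of 25377 genes (0%), the smallest adjusted p being 1, and the unadjusted p was under 0.05 for 436 genes with a higher male difference (1.72%) and 159 with a lower one (0.627%). Without BPA male 3 the split was 326 (1.28%) and 302 (1.19%). The 2 directions together came to 595 genes with all arrays, 1669 without BPA male 1 and 1044 without BPA male 2. This fit did not pair littermates. With litter as a random block the 2 directions came to 704 genes, and 0 were called. The replicate number was taken as the litter there, which no label states. Among the female arrays, vehicle female 1 had 73.5% of its spots well above background and the other 5 between 64.9% and 67.0%. Without that array and BPA male 3 the count was 572. Of the 24 genes named for males, all 12 higher and all 12 lower genes had the same sign in females, as did 57.8% of all genes. Sfmbt1 was at 0.39 in males and 0.41 in females, Abcg1 at 0.33 and 0.33, and Tet1 at −0.32 and −0.27. Litters and slides are shared between the sexes, so these are not independent repeats of the exposure.

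Among genes with a current symbol and a mean signal above −2, those of smallest interaction p with a lower male difference were Cldn5, Gnal, Adcy5, Drd1, Taf15 and Tasor. Adcy5 was at −0.21 in males and 0.34 in females (interaction −0.54, p 0.00298, adjusted p 1). Gnal, the G protein alpha subunit of striatal neurons, was at −0.18 and 0.21 (interaction −0.39), and the dopamine receptor Drd1 at −0.16 and 0.40 (interaction −0.56). All 3 are striatal genes. Of the 19 striatal markers 11 had an unadjusted interaction p under 0.05 with the lower difference in males, against 0.627% of all genes. That share of all genes was 1.19% without BPA male 3, and the markers were not counted without it. The markers were read on the same arrays and are not separate repeats. The part of the dissection in these values was not tested. For Cldn5, the claudin of the blood-brain barrier, the difference was 0.09 in males and 0.54 in females. Taf15, an RNA-binding protein, read 0.13, 0.05 and 0.31 in vehicle males and −0.27, −0.16 and −0.15 in BPA males, a difference of −0.36 in males and 0.15 in females. Tasor, a subunit of a silencing complex, was at −0.30 in males and 0.03 in females. On the other side, by the same rule, were Map3k6 (0.52 in males, −0.49 in females), Lmln, Apol7b, Zscan22, Klf15 and Ifit3. Klf15, a glucocorticoid-induced factor, was at 0.19 in males and −0.35 in females. None of these differences between the sexes passed.

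**Figure D5:**
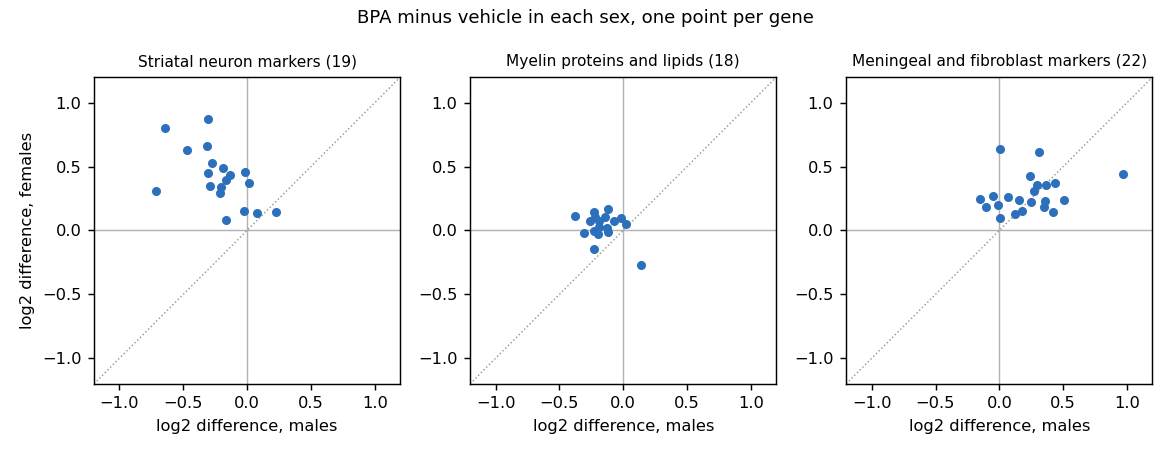
Difference between BPA and vehicle in males (horizontal axis) and females (vertical axis) on the log2 scale for the genes of 3 lists, 1 point per gene, with a dotted line where both are equal. Striatal markers lie above 0 in females in 19 of 19 and below 0 in males in 16 of 19, whereas meningeal markers lie above 0 in females in 22 of 22 and in males in 18 of 22.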

How the data were processed

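RNA of 12 cortices was hybridised to 1-colour Agilent arrays with Cy3. The authors deposited scanner files made with Agilent Feature Extraction 10.7.3.1 and mm9 probe positions, per the file headers, and the intensity used is its processed signal, already corrected for background. The authors also deposited log2 values, with scale, centring and direction not given in the sources used here. Column medians lay between −0.03 and 0.02, and the columns of BPA male 3 and vehicle female 1 correlated with their own scanner values at 0.141 and 0.483. These values served as an alternative only.

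Control and outlier spots were left out, 26 of 55681 probe names were dropped, and spots of a probe were averaged as log2 signal minus the array's 75th percentile. A probe was kept if well above background on all 3 arrays of any group (36357 probes), and the probe of highest mean stood for each gene, which gave 25377 genes. Of the probe names, 31239 matched a current RefSeq symbol. limma 3.58.1 in R 4.3.3 (data.table, version 1.17.8) fitted 4 group means with 8 residual degrees of freedom, and its p-values were adjusted by Benjamini-Hochberg. The procedure was tested on simulated data.

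Named genes were the 12 per direction of smallest p without BPA male 3, with a symbol, a mean above −2, the same sign with all arrays and no overlap. For lists, up to 4 members of smallest p were named, and small families member by member, with further members added for their role after their values were seen. For the interaction, 6 per direction of smallest p were named, also among genes with a symbol and a mean above −2. The comparison, the genes and the 46 lists were chosen with earlier results of these data known, and 2 lists were added after values were seen. The alternatives were other scalings, filters, probe rules, variance models, blocks and each array left out. Figures were drawn with Python 3.11.15, pandas 2.3.3 and matplotlib 3.10.9. The number of arrays limits the precision.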

Additional observations from a re-analysis of the deposited data

Results flagged for a closer look

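For 4 gene lists all 3 BPA males lay on one side of the vehicle males' mean and all 3 BPA females on the other side of the vehicle females' mean, by the list's median. These differences between the sexes were not tested as lists, and limma called 0 single genes for the interaction. For striatal neuron markers the median interaction was −0.571, with BPA males at −0.314, −0.217 and −0.125 and BPA females at 0.603, 0.193 and 0.455. The list's vehicle males were spread from −0.24 to 0.18, so the BPA males did not stand apart from them. For microglia and macrophage markers the median interaction was −0.101, and 3 of 24 genes had an unadjusted interaction p under 0.05 with the lower difference in males. Over all genes that share was 0.627% (1.19% without BPA male 3). For thalamic and hippocampal markers the median interaction was −0.0978, and for genes of X inactivation and escape from it 0.0336.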

How the results depend on the processing

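Limma called between 0 and 1 gene when 1 male array was left out and 0 under the other alternatives. Genes at an unadjusted p under 0.05 ranged from 1502 to 3780 when 1 male array was left out and numbered 1100 with only the 6 male arrays. The median of myelin genes was −0.1338 with the mean of a gene's probes and ranged from −0.2167 to −0.1373 when 1 male array was left out. The median of meningeal genes ranged from 0.1122 to 0.3059 in the same way. The replicate numbers did not pair the males: same-numbered males correlated at 0.128, −0.0433 and 0.0289. With the replicate block, 2143 genes had an unadjusted p under 0.05 and 0 were called. For the interaction, 595 genes had an unadjusted p under 0.05 with all arrays, 322 with normexp background correction, and between 542 and 1669 when 1 male array was left out. Of 150 genes followed, 126 differed by at least 1 SE, and 122 of these kept their direction under all 19 alternatives. The other 4 turned after quantile normalisation, Cry1 to −0.1817, Dnmt3l to −0.571, Esr1 to −0.7405 and Il1b to −0.03638, and the cause was not tested. Differences under 1 SE were not counted as turned. A trended variance, only the 6 male arrays, and the replicate and litter blocks leave every male difference unchanged, so they could turn none. Leaving out vehicle female 1 besides BPA male 3 changes it no further. For the genes named for groups that did not overlap, leaving out 1 male array could not turn the sign either. Of 48 list medians, 16 kept their sign under all 19 alternatives.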
